A study of Mus musculus with 2 samples.

Results

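The Zfp zinc finger genes of the mouse were described in blood stem and progenitor cells of the fetal liver and of adult bone marrow. Members were chosen by signal as well as name: they were the array probes whose accession belongs to a gene with a symbol of the form Zfp and a number, other than Zfp36, and whose signal was well above background on at least 1 of the 2 arrays. This gave 429 probes for 301 genes, of 508 probes for 336 such genes on the array, and the other 35 genes were not well above background on either array. Such symbols belong to 371 genes of the RefSeq gene table, and 35 of these were matched to no probe by accession. The whole series held 13383 genes measured by the same filter, from 55664 probes on both arrays. Since the filter and the value by which genes are ordered use the arrays themselves, the differences below are descriptions without a test.

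The study profiled LSK cells, which lack lineage markers and carry Sca-1 and c-Kit, the fraction that holds blood stem cells and multipotent progenitors. Wild-type LSK cells of the fetal liver at stage E14.5 were set against wild-type LSK cells of bone marrow at 8 weeks, neither from transplanted animals, and are called fetal and marrow LSK cells below. Both were sorted fresh by flow cytometry, and 20 ng of RNA from each was labelled with Cy3 and hybridised to 1 single-colour Agilent array. The labels name the strain C57BL/6 for the bone marrow cells, and the labels used here name none for the fetal liver cells. They do not say how many animals were pooled.

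Most numbered Zfp genes encode proteins with tandem C2H2 zinc fingers, each of which can contact a few bases of DNA. Many also carry a KRAB domain, which recruits the corepressor Trim28 (KAP1) and through it the histone methyltransferase Setdb1, and these proteins are known for silencing transposable elements and for keeping imprinted genes methylated. The family grew by local duplication, so its genes lie in clusters of close relatives. Other members, such as Zfp521 and Zfp423, have many fingers and no KRAB domain and act in cell fate decisions.

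A level is given here as scaled signal, the processed signal of a probe divided by the 75th percentile of its array, which was a signal of 134.0 on the fetal liver array and 178.9 on the bone marrow array. Differences are log2 scaled signal, fetal liver minus bone marrow, and the value after ± is the scanner software's technical error, with a median of 0.21 over the Zfp genes. With 1 array per group there is no biological replicate, so this error says nothing about the spread between animals. Of the 301 genes, 282 were well above background on both arrays. For 9 genes the bone marrow signal and for 10 genes the fetal liver signal was not, and their differences are bounds, written as at least N-fold. A lower signal can mean fewer cells with a transcript or less of it per cell, which cannot be told apart in sorted bulk RNA.

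All 8 LSK marker genes looked at were well above background on both arrays, but Ly6a, which encodes Sca-1, was 4.85-fold lower in fetal LSK cells (-2.28), Flt3 differed by -0.89 and Cd27 by -0.83. The hepatocyte markers Alb, Ttr and Apoa1 and the lineage markers Ms4a1 and Cd8a were not well above background on either array. The lineage markers Cd3e, Itgam, Cd4 and Klrb1c were well above background on both arrays, with differences between -0.30 and 0.52. Over the markers well above background on at least 1 array, summed scaled signals of 5 erythroblast markers were 769 in fetal liver LSK cells and 99.6 in bone marrow LSK cells, those of 6 neutrophil markers 110 in fetal liver and 134 in marrow, and those of 5 hepatocyte markers 38.4 in fetal liver and 83.4 in marrow. Among the neutrophil markers, Chil3 (-4.67) and Ngp (-3.67) were far lower in fetal LSK cells and Camp was lower (-1.09). Ltf (-0.31), S100a9 (-0.26) and S100a8 (0.15) differed little. The Y-linked Eif2s3y and Ddx3y were well above background in fetal liver LSK cells only, and Xist differed by -2.03. Sex, strain, array and slide cannot be told apart from the source of the cells, and the part of these values in the Zfp differences was not tested.

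More Zfp genes were higher in fetal than in marrow LSK cells. A difference of at least 2-fold was found for 36 Zfp genes (12%) higher in fetal LSK cells, where 6.7% of all measured genes were, and for 8 Zfp genes (2.66%) higher in marrow LSK cells, where 8.11% of all measured genes were. The median difference of the 301 Zfp genes was 0.30, against 0.11 over all measured genes. Their middle range, from the lower to the upper quartile, was -0.05 to 0.68, where that of all measured genes was -0.29 to 0.44. A positive difference was found for 214 Zfp genes (71.1%) and for 57.8% of all measured genes. The spread was narrower in the family, with an SD of 0.68 over the Zfp genes and 0.88 over all measured genes. The scaling sets the zero: with spike-in RNA as the scale, the median fell to -0.028 for the Zfp genes and to -0.23 for all measured genes, and 19 Zfp genes (all genes 3.8%) were then higher in fetal LSK cells and 14 (all genes 13%) in marrow LSK cells. With background corrected by normexp instead of by the scanner software, 9 Zfp genes (all genes 2.83%) passed 2-fold in favour of fetal LSK cells and 3 (all genes 4.53%) in favour of marrow LSK cells.

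**Figure D1:**
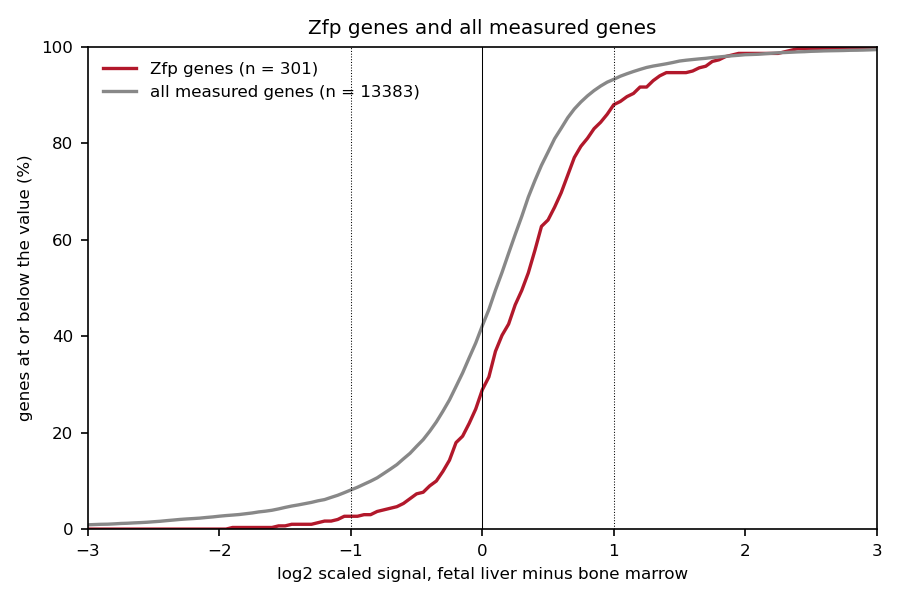
Cumulative share of genes (vertical axis, percent) at or below each log2 difference of scaled signal, fetal liver minus bone marrow (horizontal axis), for the 301 Zfp genes and all 13383 measured genes; dotted lines mark 2-fold. The Zfp curve lies to the right of the curve of all genes over most of the range, with a median of 0.30 against 0.11; with spike-in scaling both shift down by 0.33 and the Zfp median is -0.028.

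The displacement was clearest in the dimmest and middle ranges of signal, and in the brightest range the Zfp values lay close to those of all measured genes. Among the 101 dimmest Zfp genes, 21 were at least 2-fold higher in fetal LSK cells and 5 in marrow LSK cells, against 12% and 12.7% of all measured genes in the same range of signal. In the middle range, 11 of 100 Zfp genes were higher in fetal LSK cells and 0 in marrow LSK cells, against 7.21% and 9.12% of all. In the brightest range, 4 of 100 were higher in fetal LSK cells and 3 in marrow LSK cells, against 3.5% and 5.04% of all. The medians of the Zfp genes were 0.37, 0.36 and 0.19 from the dimmest to the brightest range, and those of all measured genes 0.06, 0.07 and 0.14.

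The Zfp gene with the largest bound was Zfp711, an X-linked gene whose human counterpart works with the histone demethylase PHF8 at promoters. Its scaled signal was 1.64 in fetal liver LSK cells and 0.0327, not well above background, in bone marrow LSK cells, which makes it at least 23.8-fold higher in fetal LSK cells by its single probe. Zfp105 stood at 0.986 in fetal liver and 0.192 in bone marrow, a difference of 2.36 ± 0.24 (5.13-fold), also on a single probe. Zfp503 (Nolz1), a transcriptional repressor known from the developing striatum, stood at 1.30 in fetal liver and 0.374 in bone marrow. Its difference was 1.80 ± 0.07, and a further probe gave 1.24. Zfp971 differed by 1.80 ± 0.27 and Zfp248 was at least 3.29-fold higher in fetal LSK cells, from a fetal liver scaled signal of 0.229. These genes, except Zfp248, lie outside the chromosome clusters described below, as do 10 of the 36 genes higher in fetal LSK cells.

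Of the 8 genes at least 2-fold higher in marrow LSK cells, 5 lie outside clusters. Zfp532, whose human counterpart is a fusion partner in NUT carcinoma, had a scaled signal of 0.0426, not well above background, in fetal liver and 0.276 in bone marrow, and was at least 3.77-fold lower in fetal LSK cells. Zfp367 was at 2.68 in fetal liver and 7.39 in bone marrow, a difference of -1.46 ± 0.20. Zfp703, a corepressor known from luminal breast cancer, was at 3.38 in fetal liver and 8.30 in bone marrow, a difference of -1.30 ± 0.20. These genes therefore include members with signals far above the background as well as dim ones. Zfp879 differed by -1.57 ± 0.32, with a bound of -0.69 from its other probe. Zfp365 and Zfp819 were at least 2.33-fold and 2.14-fold lower in fetal LSK cells. Zfp383 differed by -1.13 ± 0.26 and Zfp869 by -1.06 ± 0.20. The next genes in order, under 2-fold or with a smaller bound, were Zfp92 (at least 1.87-fold lower in fetal LSK cells), Zfp219 (-0.84), Zfp212 (-0.80) and Zfp316 (-0.76, with 0.34 from a further probe). At the threshold, Zfp930 (1.00) and Zfp869 (-1.06) lay just inside, and Zfp937 (0.98) and Zfp92 (-0.90) just outside.

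**Figure D2:**
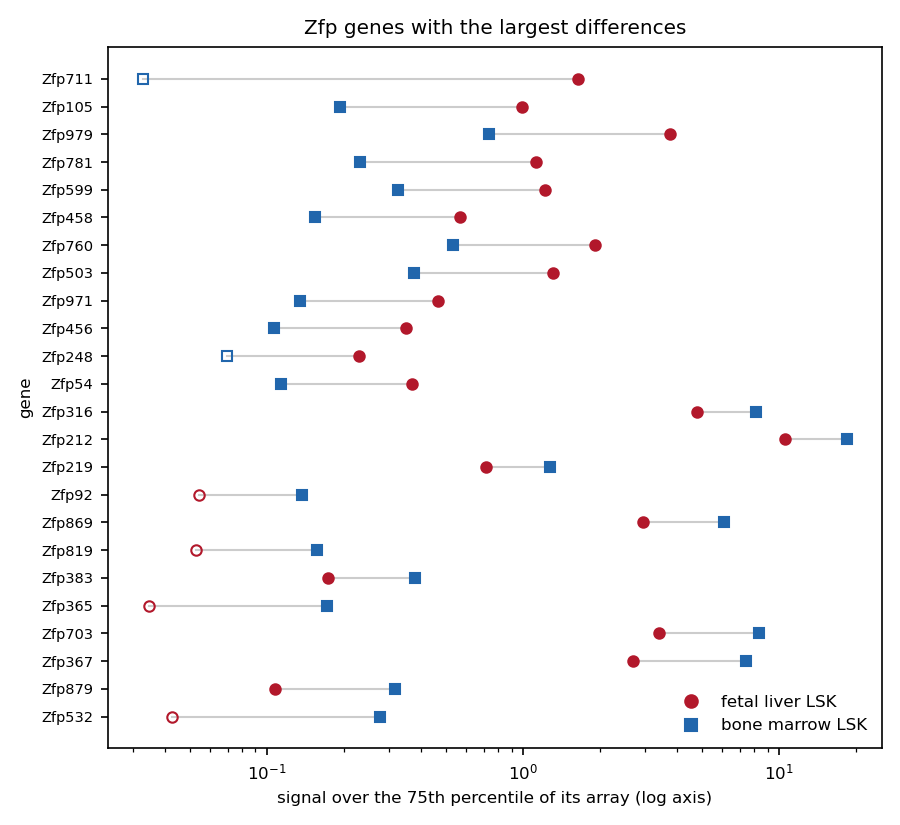
Scaled signal (signal over the 75th percentile of its array, log axis) of the 12 Zfp genes with the largest positive and the 12 with the largest negative differences, with red circles for fetal liver LSK cells and blue squares for bone marrow LSK cells; open symbols were not well above background. Zfp711 spans the widest gap, and Zfp367 and Zfp703 are examples higher in marrow LSK cells with signals above 1 on both arrays.

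The differences also varied with position along the chromosome. A cluster was a run of at least 3 measured Zfp genes with no more than 10 other protein-coding genes between neighbours in the RefSeq gene table. There were 26 such clusters with 169 genes, and 132 Zfp genes lay outside them. In clusters, 26 genes (15.4%) were at least 2-fold higher in fetal LSK cells and 3 (1.78%) in marrow LSK cells. The median difference in clusters was 0.43. Outside clusters, 10 (7.58%) were higher in fetal LSK cells and 5 (3.79%) in marrow LSK cells, with a median of 0.19. Over all measured genes the shares were 6.7% and 8.11%, so the fetal share outside clusters was near that of all genes. Of the 26 clusters, 23 had a positive median, a number that fell to 13 with spike-in scaling. By the probe of each gene with the highest mean signal, all members were positive in 8 clusters and all negative in 0. In 15 clusters no gene differed by at least 2-fold.

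**Figure D3:**
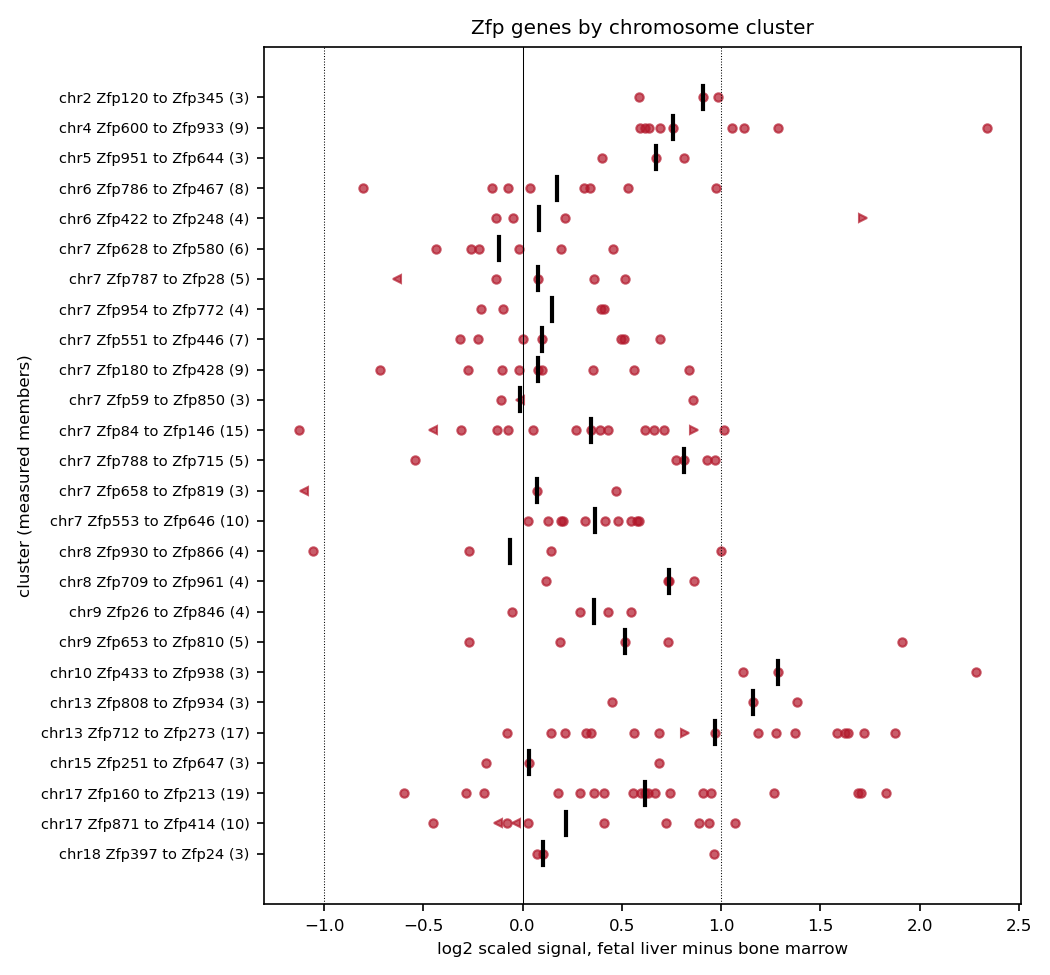
Log2 difference of scaled signal, fetal liver minus bone marrow, of each Zfp gene in 26 chromosome clusters, named by their first and last measured gene with the number measured; black bars are medians, triangles are bounds pointing away from zero, dotted lines mark 2-fold. The clusters of chromosomes 4, 10 and 13 sit to the right, while most of those of chromosome 7 straddle zero; with spike-in scaling all points move left by 0.33 and 13 cluster medians stay positive.

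The clusters on chromosomes 4, 10 and 13, grouped after their values were seen, held 17 of the 26 clustered genes that passed 2-fold in favour of fetal LSK cells. Together these 4 clusters held 32 genes, of which 17 were at least 2-fold higher in fetal LSK cells, 0 in marrow LSK cells and 31 positive, with a median of 1.08. With spike-in scaling 9 of the 32 passed 2-fold and 28 were positive, with a median of 0.75. The 10 clusters on chromosome 7 held 67 genes, of which 1 was at least 2-fold higher in fetal LSK cells and 2 in marrow LSK cells, with a median of 0.20. With spike-in scaling that median was -0.14, with 0 genes passing 2-fold in favour of fetal LSK cells and 3 in favour of marrow LSK cells. Of all measured genes on chromosome 13, 7.72% were at least 2-fold higher in fetal LSK cells, with a median difference of 0.16. The share and median were 5.62% and 0.15 on chromosome 4, 6.66% and 0.07 on chromosome 10, and 7.34% and 0.11 on chromosome 7. Whether the contrast between the clusters goes beyond that of whole chromosomes was not tested.

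The larger chromosome 13 cluster, which runs from Zfp712 to Zfp273, had 17 measured members and a median difference of 0.97. In it 8 genes were at least 2-fold higher in fetal LSK cells and 16 were positive. Zfp458 was at 0.566 in fetal liver and 0.154 in bone marrow (1.88 ± 0.26), and Zfp456 at 0.349 in fetal liver and 0.106 in bone marrow (1.72 ± 0.29). Zfp85 was at 0.711 in fetal liver and 0.228 in bone marrow (1.64 ± 0.23), and its further probe gave 1.30. Zfp455 was at 1.37 in fetal liver and 0.445 in bone marrow (1.62 ± 0.21), and Zfp273 at 1.02 in fetal liver and 0.340 in bone marrow (1.59 ± 0.22). Zfp748 (1.37 ± 0.25), Zfp712 (1.27 ± 0.23) and Zfp708 (1.18 ± 0.27) complete the group. All 8 had a scaled signal under 0.5 in bone marrow. At the other end of this cluster, Zfp87 differed by -0.08 ± 0.21 and Zfp595 by 0.14 ± 0.20, each less than the technical error, while a further probe of Zfp595 gave 0.93 ± 0.24. Rsl1, a KRAB zinc finger gene of the same stretch known for repressing male-specific liver genes in mice, differed by 0.63 and is not a Zfp-numbered gene. A smaller chromosome 13 cluster holds Zfp808 (0.45 ± 0.22), Zfp934 (1.16 ± 0.24) and Zfp935 (1.38 ± 0.24), and a further probe of Zfp934 gave 0.17.

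On chromosome 4, the 9 measured genes from Zfp600 to Zfp933 were all positive, between 0.59 and 2.34, with a median of 0.76. Zfp979 was at 3.73 in fetal liver and 0.738 in bone marrow, a difference of 2.34 ± 0.21 (5.06-fold), while its further probe, not well above background in bone marrow, gave a bound of 0.73. Zfp984 was at 13.8 in fetal liver and 5.67 in bone marrow (1.29 ± 0.20, further probe 0.60), Zfp985 at 4.19 in fetal liver and 1.93 in bone marrow (1.12 ± 0.20) and Zfp933 at 1.15 in fetal liver and 0.554 in bone marrow (1.06 ± 0.21, further probe 1.02). The remaining 5 genes, Zfp982, Zfp534, Zfp992, Zfp981 and Zfp600, differed by 0.59 to 0.76. Of the 9 genes, 6 had more than 1 passing probe, and in all 6 every probe was positive. The array's probe letters were not available here, so whether a probe also binds transcripts of a near-identical neighbour was not tested. Single values, and counts of genes, in this and all other clusters are uncertain in that respect.

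All 3 measured genes of the chromosome 10 cluster were at least 2-fold higher in fetal LSK cells. Zfp781 was at 1.12 in fetal liver and 0.230 in bone marrow, a difference of 2.29 ± 0.22 (4.88-fold), and a bound of 2.25 came from its further probe. Zfp433 was at 1.20 in fetal liver and 0.554 in bone marrow (1.11 ± 0.21), and Zfp938 at 0.262 in fetal liver and 0.107 in bone marrow (1.28 ± 0.30).

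Promoter windows, from 250 bases before to 50 after the RefSeq gene start, were compared as a description (RefSeq, build GRCm38.p6). Whether these sequences bear on the differences was not tested. A window was listed for 251 of the 301 Zfp genes, and the first listed was used where there were several. In the chromosome 4 cluster, the 14-base run GGGAAGCTAATTAA was found in 6 of 8 windows and in 0.0407% of 27025 windows of all genes, both strands read. Capitals mark the run in the windows of the holders with the largest differences.

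Zfp979, chr4:147642459-147642758, minus strand: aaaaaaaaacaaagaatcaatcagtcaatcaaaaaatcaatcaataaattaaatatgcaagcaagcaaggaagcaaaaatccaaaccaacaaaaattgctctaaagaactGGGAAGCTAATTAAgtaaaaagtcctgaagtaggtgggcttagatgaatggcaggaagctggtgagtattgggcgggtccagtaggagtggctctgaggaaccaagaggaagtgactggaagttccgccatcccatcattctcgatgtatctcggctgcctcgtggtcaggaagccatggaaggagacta
Zfp984, chr4:147809739-147810038, minus strand: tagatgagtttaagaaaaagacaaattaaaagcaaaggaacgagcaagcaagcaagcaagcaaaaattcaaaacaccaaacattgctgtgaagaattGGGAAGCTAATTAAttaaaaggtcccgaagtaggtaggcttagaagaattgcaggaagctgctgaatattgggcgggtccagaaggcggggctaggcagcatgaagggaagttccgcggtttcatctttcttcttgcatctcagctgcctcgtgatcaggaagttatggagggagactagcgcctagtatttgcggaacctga

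Both windows carry the run at a like distance from the gene start, and long stretches of letters on both sides of it are alike. The 6 holders, Zfp600, Zfp981, Zfp985, Zfp979, Zfp534 and Zfp984, differed by 0.62 to 2.34. Rex2, a gene of the same stretch that is no Zfp-numbered gene and also holds the run, differed by 0.23. In the larger chromosome 13 cluster, the most shared 14-base run was TGGGAAATGTAGTC, found in 6 of 16 windows, in 15 of 251 Zfp windows (5.98%) and in 0.229% of all windows. Capitals mark it in the windows of the 3 holders with the largest differences.

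Zfp458, chr13:67268945-67269244, minus strand: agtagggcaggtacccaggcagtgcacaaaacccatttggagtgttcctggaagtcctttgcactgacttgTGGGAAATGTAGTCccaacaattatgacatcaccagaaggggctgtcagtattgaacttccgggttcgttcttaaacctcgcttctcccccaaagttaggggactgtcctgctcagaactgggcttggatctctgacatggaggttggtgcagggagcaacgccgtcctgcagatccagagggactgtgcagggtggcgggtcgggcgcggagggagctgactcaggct
Zfp85, chr13:67755153-67755452, minus strand: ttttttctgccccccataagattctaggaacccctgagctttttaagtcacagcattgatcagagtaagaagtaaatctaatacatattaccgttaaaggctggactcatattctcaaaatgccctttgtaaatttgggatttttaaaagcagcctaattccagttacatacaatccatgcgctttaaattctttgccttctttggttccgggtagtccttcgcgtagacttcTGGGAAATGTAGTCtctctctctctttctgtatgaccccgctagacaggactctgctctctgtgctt
Zfp712, chr13:67061121-67061420, minus strand: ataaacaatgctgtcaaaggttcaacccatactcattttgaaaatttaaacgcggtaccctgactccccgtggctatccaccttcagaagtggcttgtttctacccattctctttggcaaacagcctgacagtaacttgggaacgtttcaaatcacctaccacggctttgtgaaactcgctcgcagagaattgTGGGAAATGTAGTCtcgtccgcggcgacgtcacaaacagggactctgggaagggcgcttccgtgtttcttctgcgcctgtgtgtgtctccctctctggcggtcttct

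Unlike in the chromosome 4 windows, the flanking letters differ between these genes. The 6 holders differed by 0.14 (Zfp595, further probe 0.93) to 1.88 (Zfp458). Both runs were picked after the sequences were seen, and a shared run is no sign of a factor bound there.

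The chromosome 13 run holds, on its opposite strand, a form of the element bound by ZNF143, the human counterpart of Zfp143, searched as ACTACANNTCCC with 2 bases left free. On either strand this motif, chosen after the run was seen, was found in 43 of 251 Zfp windows (17.1%), in 4.22% of windows of measured genes and in 1.98% of all windows. It was in 9 of 29 windows of genes at least 2-fold higher in fetal LSK cells (31.0%), 2 of 6 of those higher in marrow LSK cells (33.3%) and 32 of 216 of those under 2-fold (14.8%), so it was not limited to a direction. The 6 chromosome 13 holders whose run led to the motif are among these windows, 3 of them in the 9. These shares therefore cannot show a link with direction. The CCAAT box (CCAAT) was in 49.0% of Zfp windows, 38.9% of windows of measured genes and 37.9% of all windows. The ETS core (CCGGAAG) was in 19.9% of Zfp windows, 17.1% of those of measured genes and 9.12% of all. The GC box (GGGCGG) was in 47.8% of Zfp windows, fewer than the 61.2% of measured genes and more than the 35.9% of all. The TATA box (TATAAA) was in 6.37% of Zfp windows, 8.17% of those of measured genes and 14.2% of all. These motifs were read on both strands. Zfp143 itself was at 0.749 in fetal liver and 0.734 in bone marrow, a difference of 0.03 ± 0.21.

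On chromosome 17, from Zfp160 to Zfp213, 19 genes had a median of 0.62, with 16 positive and 4 at least 2-fold higher in fetal LSK cells. Zfp760 was at 1.90 in fetal liver and 0.534 in bone marrow (1.83 ± 0.21), Zfp54 at 0.369 in fetal liver and 0.113 in bone marrow (1.71 ± 0.28), and Zfp945 at 0.833 in fetal liver and 0.258 in bone marrow (1.69 ± 0.23, further probe 0.89). Zfp820 differed by 1.27 ± 0.21, with 1.59 from a further probe. Zfp160, at 0.343 in fetal liver and 0.519 in bone marrow, was the lowest of the cluster with -0.60 ± 0.22. In the neighbouring cluster from Zfp871 to Zfp414, Zfp763 (1.07 ± 0.22) was at least 2-fold higher in fetal LSK cells, and the median of its 10 genes was 0.22.

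In 5 clusters all members were positive by the probe used and none passed 2-fold. On chromosome 7, the 10 genes from Zfp553 to Zfp646 were between 0.03 and 0.59, with a median of 0.36. Zfp120, Zfp345 and Zfp937 on chromosome 2 were between 0.59 and 0.98. Zfp951, Zfp326 and Zfp644 on chromosome 5 were between 0.40 and 0.81. Zfp709, Zfp882, Zfp617 and Zfp961 on chromosome 8 were between 0.12 and 0.86. There the lowest probe values were -1.04 for Zfp882 and -0.36 for Zfp961, opposite to the probe used. On chromosome 18, Zfp397 differed by 0.97, Zfp35 by 0.07 and Zfp24 by 0.10. Further probes gave -0.31 for Zfp35 and -0.37 for Zfp24. These values, like all others, fall by 0.33 with spike-in scaling. By the probe used, Zfp35, Zfp24 and, on chromosome 8, Zfp709 are then below zero. So are Zfp768, Zfp689, Zfp646, Zfp771 and Zfp747 of the chromosome 7 cluster.

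Other measured genes that lie between members of a cluster numbered 67. Their median difference was 0.28, with 47 positive (57.8% of all measured genes were), 6 at least 2-fold higher in fetal LSK cells (6.7% of all) and 2 in marrow LSK cells (8.11% of all). By name, 11 belong to zinc finger families, with a median of 0.63, 10 positive and 2 of the 6. The other 56 carry no such name, whether or not they encode zinc fingers, which was not checked. They had a median of 0.20, with 37 positive and 4 of the 6, among them AU041133 and Gm3604. The 6 were AU041133, Gm3604, Zfp955a, Zfp955b, Acp5 and Commd5, between 1.18 and 1.47, and are named after their values were seen because there were few. The 2 higher in marrow LSK cells were Plaur (-2.82), the urokinase receptor, and Rassf4, at least 3.28-fold lower in fetal LSK cells.

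Apart from repeated spots of 1 probe, which were averaged, probes of the same gene are the only repeat within an array. Of 110 Zfp genes with more than 1 passing probe, 35 (31.8%) had probes on opposite sides of zero, where 27.9% of all such genes did. The median spread between the probes of a gene was 0.38, and in 14 genes it was at least 2-fold. Of the 36 genes higher in fetal LSK cells, 15 had more than 1 passing probe. All probes were positive in 13 of these and at least 2-fold in 8, while the other 21 genes rest on 1 probe. Of the 8 higher in marrow LSK cells, 7 rest on 1 probe.

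In 2 genes the probes went at least 2-fold in opposite directions, which was so in 0.118% of all measured genes with several probes. Zfp599 had 1.22 in fetal liver and 0.324 in bone marrow by one probe (1.91 ± 0.21), 0.163 in fetal liver and 0.690 in bone marrow by another (-2.08 ± 0.27), and 0.0941 in fetal liver and 0.110 in bone marrow by the remaining probe (-0.22 ± 0.39). Zfp27 had 0.585 in fetal liver and 0.289 in bone marrow by one probe (1.01 ± 0.22) and 0.106 in fetal liver and 0.222 in bone marrow by another (-1.06 ± 0.33). The mean over probes gave -0.13 for Zfp599 and -0.024 for Zfp27, so neither has a direction that holds for the gene. Without the 35 genes whose probes disagree in sign, 34 genes were at least 2-fold higher in fetal LSK cells and 8 in marrow LSK cells, and the median was 0.34.

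**Figure D4:**
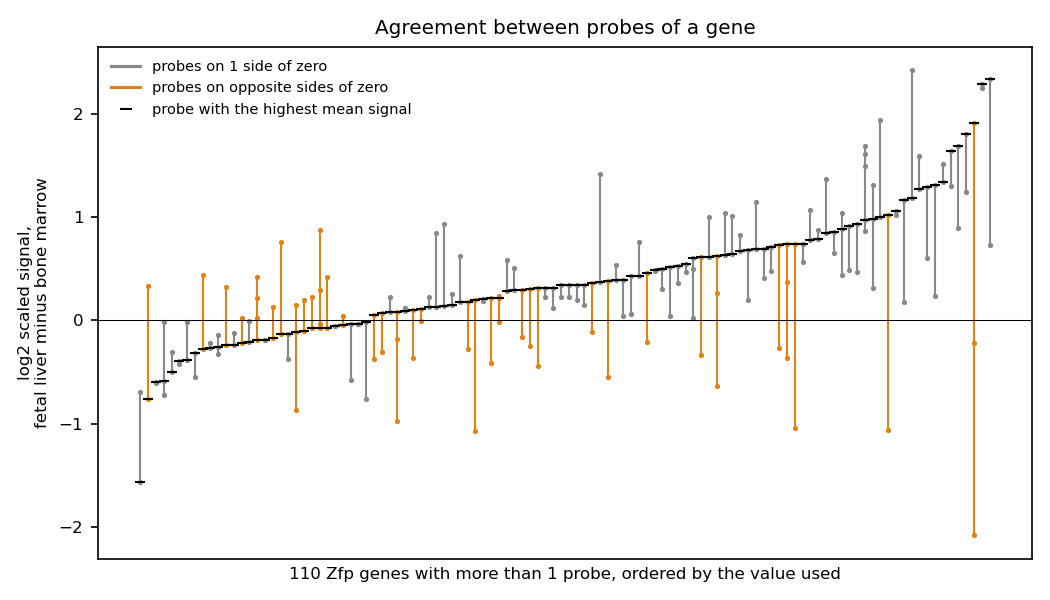
Log2 difference of scaled signal, fetal liver minus bone marrow, for each passing probe (dots) of the 110 Zfp genes with more than 1, joined by a line per gene and ordered by the probe with the highest mean signal (black dash), whose value the gene takes. Orange lines mark the 35 genes with probes on opposite sides of zero, and the longest, near the right edge, is Zfp599 with 1.91 and -2.08.

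Zfp genes of known role showed mostly small differences. Of 33 such genes listed, 27 were measured, 2 were at least 2-fold higher in fetal LSK cells (Zfp503 and Zfp462), near the 6.7% of all measured genes, 1 was higher in marrow LSK cells (Zfp703, against 8.11% of all), and 19 were positive (57.8% of all were), with a median of 0.21. Zfp462, a chromatin protein that keeps pluripotent cells from differentiating, was at least 2.47-fold higher in fetal LSK cells by a probe with a fetal liver scaled signal of 0.171, and its further probe gave a bound of 0.24. Zfp42 (Rex1), a pluripotency marker, and Zfp516 were not well above background on either array.

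Zfp57, which binds methylated imprinting control regions, was at 1.37 in fetal liver and 1.19 in bone marrow (0.21 ± 0.20), and its partner in that role, Zfp445, at 1.63 in fetal liver and 1.62 in bone marrow (0.01 ± 0.20). Zfp568, a KRAB repressor of a placental Igf2 transcript, was at 0.845 in fetal liver and 0.646 in bone marrow (0.39 ± 0.21). Zfp809, which silences murine leukaemia virus elements in embryonic stem cells, differed by 0.73 ± 0.23 by one probe and by -0.27 ± 0.24 by another. None of these 4 members reached 2-fold. Of the other imprint-linked zinc finger genes, which are not Zfp-numbered, Plagl1 differed by 2.65 ± 0.23 by the probe used, with probes from -0.38 to 2.65, and Zim3 by 0.50 ± 0.30.

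Among the members with roles in blood or cell fate, Zfp521, known from stem and early B lineage cells, was at 2.22 in fetal liver and 2.14 in bone marrow (0.05 ± 0.20), with -0.37 from a further probe. Zfp423, its relative and a determinant of fat cells, was at 0.431 in fetal liver and 0.245 in bone marrow (0.81 ± 0.23). Zfp318, which controls IgD splicing in B cells, was at 1.11 in fetal liver and 0.695 in bone marrow (0.68 ± 0.21), with 0.20 from a further probe. Zfp335, needed for T cell maturation, was at 0.498 in fetal liver and 0.588 in bone marrow (-0.24 ± 0.21). Binders of GC-rich sequence, Zfp148 and Zfp281, differed by -0.04 each, with -0.58 from a further probe of Zfp148. Zfp207 (BuGZ), a mitotic spindle protein, differed by 0.18 ± 0.20 and Zfp217 by 0.34 ± 0.20.

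The 6 Zfp genes with the highest mean signal were under 2-fold. Zfp628 was at 2725 in fetal liver and 1986 in bone marrow (0.46 ± 0.20), and its further probe gave -0.21. Zfp408 differed by 0.28, Zfp771 by 0.20, Zfp658 by 0.07 and Zfp663 by -0.01. Zfp622, whose human counterpart acts in maturation of the large ribosomal subunit, was at 118 in fetal liver and 188 in bone marrow (-0.68 ± 0.20).

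Genes of the corepressor machinery through which KRAB zinc finger proteins act were mostly positive with the main scaling. Of 27 genes listed, 25 were measured, 20 were positive (57.8% of all measured genes were) and the median was 0.41. With spike-in scaling the median was 0.07, 14 were positive and 0 passed 2-fold. Cbx5 (2.14-fold), which encodes the heterochromatin protein HP1 alpha, Mphosph8 (1.12 ± 0.20), a subunit of the HUSH silencing complex, and Hells (1.15 ± 0.21), a remodeller needed for DNA methylation, were at least 2-fold higher in fetal LSK cells with the main scaling (6.7% of all measured genes were), and 0 genes in marrow LSK cells. Trim28 was at 67.0 in fetal liver and 50.6 in bone marrow (0.41 ± 0.20), and Setdb1 at 1.81 in fetal liver and 1.19 in bone marrow (0.60 ± 0.21). Both differences are under 2-fold.

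Related zinc finger families were not all displaced alike. Of all measured genes, 6.7% were at least 2-fold higher in fetal LSK cells and 8.11% in marrow LSK cells. Genes named Zfp with a letter after the number, which the member rule leaves out, numbered 23 and had a median of 0.72. Of these, 6 (26.1%) were at least 2-fold higher in fetal LSK cells and 0 in marrow LSK cells. Zfp354a had the largest difference of them, at 0.429 in fetal liver and 0.0806 in bone marrow (2.41 ± 0.11). Medians were 0.33 over 8 Zscan genes and 0.38 over 9 Zkscan genes, with 0 genes of either family at 2-fold. Over 17 Zc3h genes, which carry CCCH fingers, the median was 0.18, with 0 higher in fetal LSK cells and 2 (11.8%) in marrow LSK cells. Over 36 Zbtb genes, which pair zinc fingers with a BTB domain, the median was -0.09. Of these, 2 (5.56%) were higher in fetal LSK cells and 4 (11.1%) in marrow LSK cells, near the shares of all measured genes. Over 14 Klf genes the median was -0.50, with 0 higher in fetal LSK cells and 5 (35.7%) in marrow LSK cells. The largest difference was that of Klf9 (0.127 in fetal liver and 3.42 in bone marrow, -4.74 ± 0.27). Of these medians, those of the Zscan, Zkscan and Zc3h families lie near 0.33 or below, so that spike-in scaling brings them close to or under zero. Whether the families differ beyond the spread between animals was not tested.

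**Figure D5:**
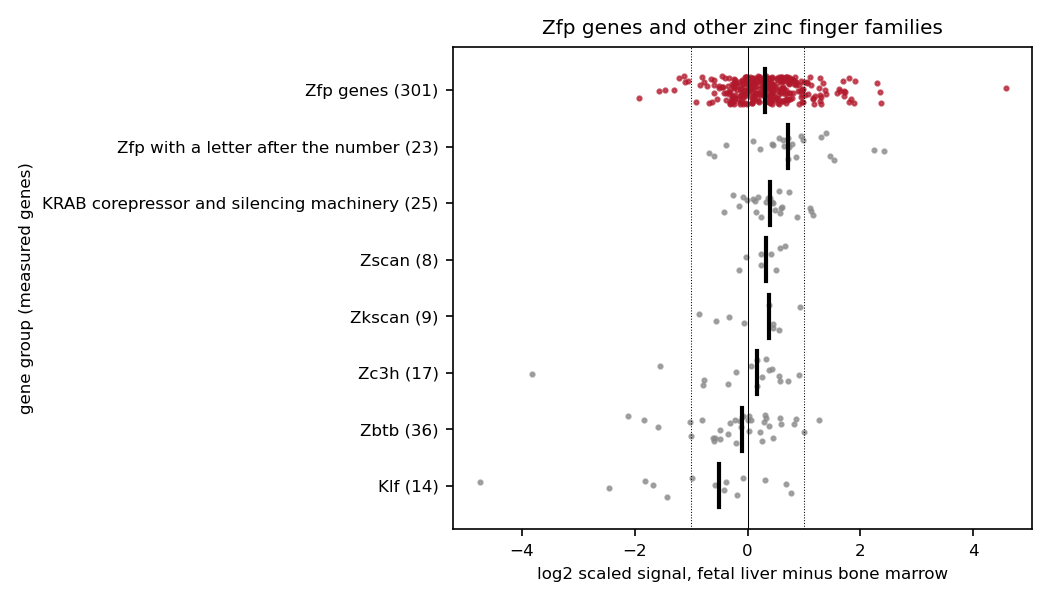
Log2 difference of scaled signal, fetal liver minus bone marrow, of each measured gene (dots, jittered vertically) in the Zfp genes and in 7 other gene groups, with black bars for medians and dotted lines at 2-fold. The medians run from 0.72 for Zfp genes with a letter and 0.30 for the Zfp genes to -0.50 for the Klf genes; spike-in scaling moves every point left by 0.33 and takes the Zfp median to -0.028.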

How the data were processed

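The deposited intensity values of spots are, per the file headers, processed signals of Agilent Feature Extraction 10.7.1.1, background-subtracted, linear and not scaled between arrays. The quality flags used are 0 or 1 per spot, also per the file headers. The authors' deposited ratio table equals those signals divided by 133.9 for fetal liver and 178.6 for bone marrow, within 0.1% for 99.99% of probes, and served as an alternative.

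Outlier spots, 122 on the fetal liver array and 137 on the bone marrow array, were left out, none was saturated, and repeated spots were averaged. Each probe's log2 signal had the log2 75th percentile of its array subtracted. Probes well above background numbered 25812 on the fetal liver array and 26376 on the bone marrow array. A gene took its passing probe with the highest mean signal. A probe dim on 1 array gave a bound, against the higher of its own signal and the lowest signal well above background there (9.82 in fetal liver, 12.4 in bone marrow). Accessions were matched to symbols, and neighbours ordered, with the RefSeq gene table (GRCm38.p6). The array design uses another build, so no probe coordinates are given. The normexp alternative (limma 3.58.1, R 4.3.3, offset 50) took the median spot signal, since the mean signal column is not used here. Other steps used Python 3.11.15, numpy 2.4.6 and pandas 2.3.3.

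With 1 array per group no test was run, and the number of arrays limits the precision. Named genes were the 12 with the largest differences in each direction, the 6 with the highest mean signal, those with conflicting probes, those of known role, and clusters of 1 sign. Further members of the chromosome 8, 13 and 17 clusters, and extremes of gene lists, were named after their values were seen. The members and gene lists were chosen with earlier results of these data known. Protein features were not analysed here, and some marker genes are not reported here.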

Additional observations from a re-analysis of the deposited data

How the results depend on the processing

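The number of Zfp genes that passed 2-fold moved most with the scale and with the background correction by normexp, which includes an offset. With spike-in scaling, 19 passed it in favour of fetal LSK cells and 14 in favour of marrow LSK cells (3.8% and 13% of all measured genes), the Zfp median was -0.028 and 13 clusters had a positive median. With normexp and its offset of 50 these counts were 9 and 3, or 12 in all (2.83% and 4.53% of all measured genes). At 1.5-fold they were 96 and 19, or 115 in all (17.5% and 14.9% of all measured genes). The fetal share of the Zfp genes past 2-fold was 81.8% in the main setting and 57.6% with spike-in scaling, against 45.2% and 22.6% over all measured genes. With genes above background on both arrays only, 5 Zfp genes were higher in marrow LSK cells. The mean over probes turned the sign of Zfp27 (-0.024) and Zfp599 (-0.13). Median scaling, quantile normalization, no filter on dim signals, the authors' ratio table, the outlier spots and leaving out X-linked genes (35 higher in fetal LSK cells) kept each count within 1.5 times its main value. The causes were not tested. No paired analysis was possible because each group has 1 sample.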
